A study of Mus musculus with 144 samples.

Results

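Tumour necrosis factor, encoded by Tnf, was described together with 6 genes of its proximal pathway: the receptors Tnfrsf1a (TNFR1) and Tnfrsf1b (TNFR2), the shedding enzymes Adam17 and Adam10, and the receptor-proximal signalling proteins Traf2 and Ripk1. The 7 genes were chosen by symbol from the 55364 rows of the deposited table. Each symbol had 1 row, and all 7 were among the 8679 genes with at least 1 FPKM (reads of a gene, scaled to its exon length in kilobases and to 1e+06 assigned reads of the cell) in at least 10% of cells, which are called measured here.

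Single cells labelled microglia were sorted from the retina of Iba1-EGFP mice, in which green fluorescent protein marks cells that use Iba1, a gene active in macrophages, microglia included. All mice were 16 weeks old. The 3 groups were 54 cells with no treatment, 54 cells from day 2 and 36 cells from day 4 after optic nerve crush, an injury to the axons of retinal ganglion cells. The cells lay on 3 plates, each with 18 untreated, 18 day 2 and 12 day 4 cells in separate rows, so plate row and time point cannot be told apart. Labels name no animal, and each time point was therefore treated as 1 sample of cells: differences have no replicate check and no test, SDs are over cells, and plates are compared as technical batches.

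TNF is made as a membrane-bound protein on the cell surface. ADAM17, also called TNF-converting enzyme, releases it as a soluble cytokine, and the related protease ADAM10 can cleave it and many other surface proteins. Both forms bind TNFR1, which carries a death domain, whereas TNFR2 responds chiefly to the membrane-bound form and has no death domain. At TNFR1 the kinase RIPK1 and the adaptor TRAF2 join a membrane complex that activates NF-kB and MAP kinases, and RIPK1 can also take part in apoptosis or necroptosis. Microglia are a main source of TNF in the injured retina and brain.

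The promoter and the AU-rich part of the Tnf mRNA are shown first, since Tnf is the gene of the 7 whose level differed most between time points, with the promoter of its main protease beside it. Tnf (ENSMUSG00000024401) lies on chromosome 17, from 35199381 to 35202007 on the minus strand of GRCm38. Its promoter is the 250 bases before the RefSeq start site, at chr17:35202008-35202257 on the minus strand of GRCm38.p6, and is printed 5′ to 3′ beside that of Adam17, at chr12:21373633-21373882 on the minus strand. Capitals mark matches on either strand to 3 motifs: TATAAA, the TATA box; TGANNTCA, which is like a cyclic AMP response element; and a loose form of the NF-kB site, GGG and CC with any 5 bases between them. A match is a description of the letters and not a measured binding site.
Tnf promoter: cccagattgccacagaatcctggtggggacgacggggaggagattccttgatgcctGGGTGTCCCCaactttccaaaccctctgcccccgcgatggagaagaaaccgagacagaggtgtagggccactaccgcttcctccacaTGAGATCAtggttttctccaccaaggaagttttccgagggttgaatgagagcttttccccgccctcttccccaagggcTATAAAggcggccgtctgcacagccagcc
Adam17 promoter: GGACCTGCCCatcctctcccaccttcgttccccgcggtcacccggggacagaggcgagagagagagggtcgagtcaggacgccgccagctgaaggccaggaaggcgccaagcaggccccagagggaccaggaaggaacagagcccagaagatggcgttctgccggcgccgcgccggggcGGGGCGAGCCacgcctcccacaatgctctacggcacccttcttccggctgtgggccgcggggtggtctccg
In the Tnf promoter TATAAA lay at bases -29 to -24 from the start site, TGANNTCA at -107 to -100 and the NF-kB form at -194 to -185. All 7 genes matched the RefSeq promoter table, Ripk1 with 2 start sites. TATAAA and TGANNTCA matched in the Tnf promoter and in none of the promoters of the other 6 genes. Across 32851 promoters of the same length, 12.4% held TATAAA, 11.9% held TGANNTCA and 45.8% held the NF-kB form. Adam17 had 2 matches to the NF-kB form. The Adam17 promoter contained 23 CpG dinucleotides and was 70.4% G or C, against 10 and 57.6% for Tnf and a median of 6 and 52.4% for all promoters.

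The 3′ UTR of Tnf carries an AU-rich element, through which proteins such as tristetraprolin (Zfp36) bring about mRNA decay. Its densest stretch of 30 bases lay at chr17:35199679-35199708 on the minus strand of GRCm38, bases 437 to 466 of the 764-base 3′ UTR in GENCODE, with ATTTA in capitals.
Tnf AU-rich stretch: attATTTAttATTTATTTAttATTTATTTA
The stretch held 5 copies of ATTTA. The whole Tnf 3′ UTR held 5 copies, counting overlaps, of the longer core TTATTTATT. Among 21028 protein-coding genes, 7.66% had at least 1 copy and 0.200% had at least as many as Tnf. Ripk1 had 2 copies in a 4365-base 3′ UTR, and the other 5 genes had 0.

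The cells had a median of 5.31 M reads assigned to genes (0.190 to 18.9 M, where M is 1e+06), and the number of genes at 1 FPKM or more per cell had a median of 2792 for the untreated group, then 3469 and 3957.5 for days 2 and 4. At least 3 of 10 microglia markers reached 20 FPKM in every cell. At least 3 markers of another cell type did so in 16 untreated cells, 11 of day 2 and 6 of day 4, most often of Mueller glia or border macrophages. The summed level of 6 T and NK cell markers was at most 0.0916 FPKM in any cell. That of 4 B cell markers had medians of 223, 152 and 303 FPKM in untreated, day 2 and day 4 cells and reached 4118, with at least 3 of them at 20 FPKM in 0 cells. Monocyte and neutrophil markers had summed medians near 0 and reached 1799 and 1359 FPKM, and 1 cell, of day 2, had at least 3 monocyte markers at 20 FPKM. The part of these cells in the results was not tested beyond leaving out those with 3 such markers. A level of 20 FPKM is called high below. A gene is called higher or lower between time points where the mean of log2(FPKM + 1) differed by at least 1 and in the same direction in all 3 plates.

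Tnf mRNA was higher at day 4 than at either earlier time point, and few cells lay between a low and a high level. In untreated cells Tnf ranged from 0 to 704 FPKM with a median of 2.57, at day 2 from 0.119 to 1355 with a median of 2.75, and at day 4 from 0.262 to 4297 with a median of 415. The ranges overlapped, and low cells occurred at each time point, while the middle of the distribution moved at day 4. Tnf was high in 10 of 54 untreated cells (18.5%, exact Clopper-Pearson 95% interval 9.25% to 31.4%), in 16 of 54 cells at day 2 (29.6%, 18% to 43.6%) and in 24 of 36 at day 4 (66.7%, 49% to 81.4%). These intervals cover counting error between cells only. Between 10 and 40 FPKM lay 4, 7 and 1 cells, so few cells stood near the level that defined high. Of the 24 high cells at day 4, 23 were above 100 FPKM.

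**Figure D1:**
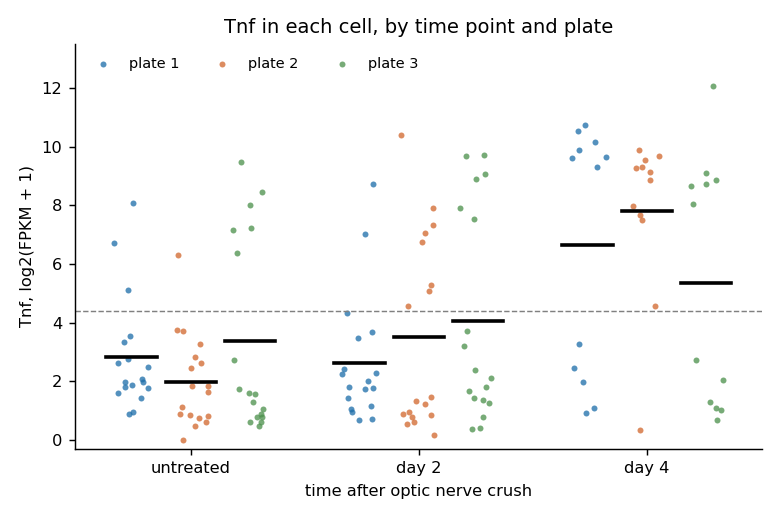
Tnf as log2(FPKM + 1) in each cell (points), by time after optic nerve crush and by plate (colours); black bars are means of the cells of a plate and the dashed line is 20 FPKM. At day 4, 24 of 36 cells were above the line, against 10 of 54 untreated cells, and low cells were present at each time point.

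The mean of log2(FPKM + 1) for Tnf was 2.73 ± 2.42 (SD, n = 54 cells) untreated, 3.41 ± 3.06 (SD, n = 54 cells) at day 2 and 6.60 ± 3.81 (SD, n = 36 cells) at day 4. Day 4 exceeded untreated by 3.87 on this log2 scale, with 3.80, 5.82 and 1.98 in plates 1, 2 and 3. That difference was above those of 99.95% of measured genes, where the median difference was 0.45 and 18.9% of genes were called higher and 0.346% lower. Mean FPKM was 12.6-fold higher at day 4 than in untreated cells. Against day 2 the difference was 3.20 (4.00, 4.30 and 1.29 by plate), in a comparison in which 9.57% of measured genes were called higher and 0.864% lower, and the median of all genes was 0.25. Day 2 exceeded untreated by 0.67, under the size that makes a call, and plate 1 went the other way (-0.20, 1.52 and 0.69); 3.89% of genes were called higher and 0.0576% lower. The comparisons share cells and are not independent of each other.

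Plates differed in how far Tnf reached. High cells numbered 3, 1 and 6 of 18 in untreated plates 1, 2 and 3, then 2, 8 and 6 of 18 at day 2, and 7, 11 and 6 of 12 at day 4. Plate 3 had the smallest difference at day 4 and plate 2 the largest. Detected genes per cell were also more numerous at the later time points, and with their number in the model the day 4 difference was 2.49 against untreated and 2.51 against day 2, while day 2 minus untreated was -0.15. Without the cells that carried markers of other cell types, the day 4 difference was 4.91. Without plate 2 it was 2.89.

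Cells with low Tnf mostly had listed values above 0. Only 1 cell had a listed value of 0, and the 94 cells under 20 FPKM held a median of 14.5 Tnf reads with a maximum of 230. Their read number followed the Tnf reads of the other wells in the same plate column with a Spearman rho of 0.05, and that of the other wells in the same row with -0.08. It was a median of 0.12% of the Tnf reads of the column. Whether these few reads came from the cell itself or from other wells was not tested. After each cell was thinned to 2 M reads, at least 5 Tnf reads remained in 35 of 50 untreated cells, 26 of 45 at day 2 and 32 of 36 at day 4, with medians of 8.5, 7 and 1376.5 reads. Thinning left out 4, 9 and 0 shallower cells. The unthinned share of cells at 1 FPKM or more was 72.2%, 75.9% and 91.7%.

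By median FPKM and by mean log2(FPKM + 1), the receptors were lower than Tnf at each time point. Neither was called different between any 2 time points. By mean FPKM, Tnfrsf1b was above Tnf in untreated plate 1 (44.2 against 25.8). In untreated plate 2 both Tnfrsf1a (13.8) and Tnfrsf1b (40.2) were above Tnf (7.78). Tnfrsf1a (ENSMUSG00000030341, chromosome 6, 125349362 to 125362484, plus strand) had medians of 0.216, 0.36 and 0.588 FPKM and maxima of 508, 247 and 216 FPKM in untreated, day 2 and day 4 cells. It was at 0 in 9, 4 and 4 cells and high in 10 of 54, 11 of 54 and 11 of 36 cells. Most cells were thus low and the groups overlapped. Its mean log2(FPKM + 1) was 1.52 ± 2.52 (SD), 1.97 ± 2.51 and 2.41 ± 2.92. The day 4 difference from untreated was 0.89, positive in each plate (0.76, 1.6 and 0.32), and 0.084 once detected genes per cell entered the model. Mean FPKM per plate ran from 2.40 to 56.8 in untreated cells.

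Tnfrsf1b (ENSMUSG00000028599, chromosome 4, 145213463 to 145246870, minus strand) differed from Tnfrsf1a in its order over time. Its means were 1.42 ± 2.34 (SD) untreated, 2.23 ± 2.74 at day 2 and 1.47 ± 1.95 at day 4, with medians of 0.402, 0.639 and 0.495 FPKM. It was high in 7 of 54, 15 of 54 and 5 of 36 cells. The higher level at day 2 came from plate 3, where 9 of 18 cells were high against 4 and 2 of 18 in plates 1 and 2. Day 2 minus untreated was 0.81 (0.40, -0.18 and 2.22 by plate) and day 4 minus day 2 was -0.76 (-0.39, 0.42 and -2.30), a value above those of 2.39% of measured genes. Plate 2 had the opposite sign in both. In plate 3 at day 4, 0 of 12 cells were high, with an exact upper bound of 26.5%. Day 4 minus untreated was 0.05.

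Over all time points both receptors were high in 7 cells, Tnfrsf1a alone in 25 and Tnfrsf1b alone in 20. At day 4 the counts were 1, 10 and 4 of 36, and at day 2 they were 4, 7 and 11 of 54. At least 1 receptor was high in 15 untreated cells, 22 of day 2 and 15 of day 4. At 1 FPKM or more, 30 cells over all time points had both receptors, 21 Tnfrsf1a alone and 28 Tnfrsf1b alone. The split into cells with 1 receptor thus depended on the threshold. Whether it differs from that of 2 unrelated genes was not tested.

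Neither shedding enzyme was called different between any 2 time points. Adam10 (ENSMUSG00000054693, chromosome 9, 70678997 to 70780229, plus strand) had medians of 0.787, 1.08 and 5.25 FPKM and was high in 12 of 54, 12 of 54 and 13 of 36 cells. Its means were 2.11 ± 2.45 (SD), 2.20 ± 2.26 and 2.94 ± 2.57. Day 4 exceeded untreated by 1.80 and 1.39 in plates 1 and 2 but was -0.70 in plate 3, for a pooled 0.83, so the plates did not share a direction. With detected genes per cell in the model the pooled value was -0.24. Of the 13 high cells at day 4, 7 were in plate 2, 4 in plate 1 and 2 in plate 3.

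Adam17 (ENSMUSG00000052593, chromosome 12, 21323509 to 21373632, minus strand), the main TNF-releasing protease, had medians of 0.299, 0.618 and 0.767 FPKM, and was high in 9 of 54, 11 of 54 and 9 of 36 cells. Its means were 1.57 ± 2.20 (SD), 2.14 ± 2.31 and 1.96 ± 2.14. Day 2 minus untreated was 0.57 and positive in the 3 plates (0.36, 0.76 and 0.59), below the size that makes a call. Day 4 minus untreated was 0.39. Exons of Adam17 overlap those of Iah1, and 38.4% of its values above 0 were not whole reads within 0.01 read, and reads of the 2 genes cannot be told apart where they overlap. At least 1 of the shedding enzymes was high in 17, 20 and 18 cells and both in 4, 3 and 4.

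**Figure D2:**
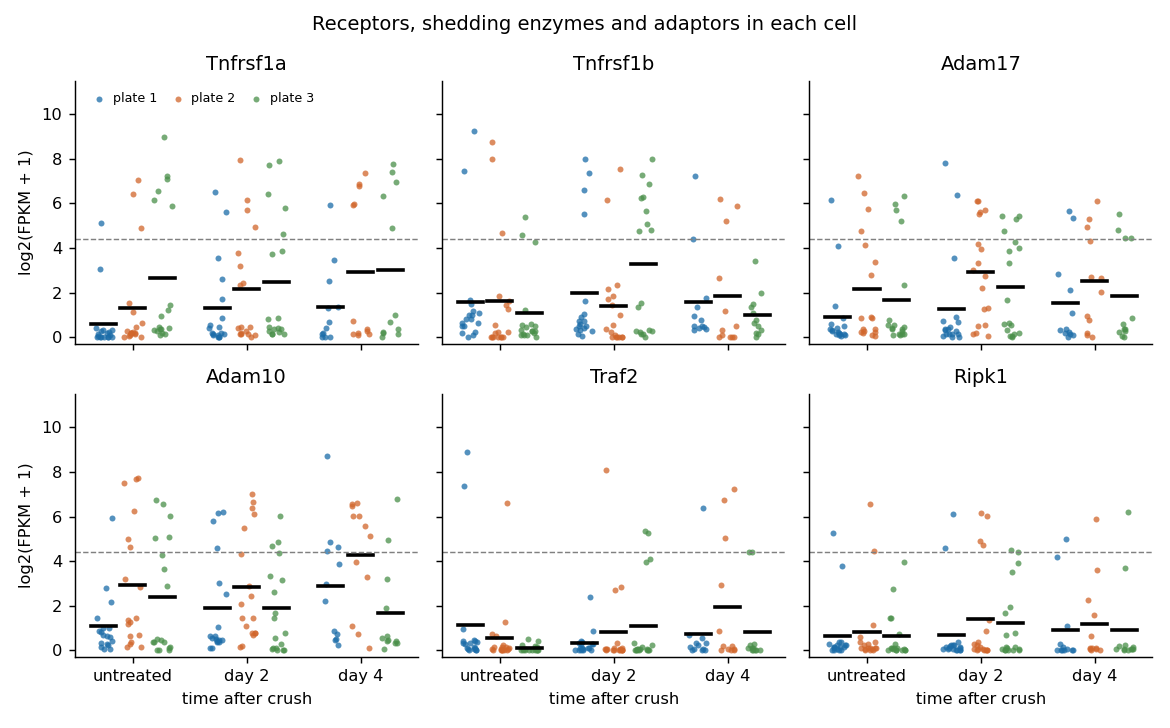
The 6 genes other than Tnf as log2(FPKM + 1) in each cell, by time after optic nerve crush and by plate (colours); black bars are plate means and the dashed line is 20 FPKM. With plates pooled, most cells lie under the line for each gene and time point. Adam10 at day 4 is above it in 13 of 36 cells, and in 7 of 12 in plate 2. The Tnfrsf1b cells above the line at day 2 are most numerous in plate 3, 9 of 18.

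Traf2 and Ripk1 were low at each time. Traf2 (ENSMUSG00000026942, chromosome 2, 25517982 to 25546940, minus strand), the adaptor that links TNF receptors to ubiquitin ligases, had a median of at most 0.0890 FPKM and was high in 3, 3 and 5 cells. It was at 0 in 40 cells over the 3 time points. Ripk1 (ENSMUSG00000021408, chromosome 13, 34002363 to 34037147, plus strand) had a median of at most 0.102 FPKM and was high in 3, 7 and 3 cells, with 0 listed in 25 cells. Mean log2(FPKM + 1) of Traf2 was 0.59 ± 1.76 (SD) in untreated cells and 1.15 ± 2.17 at day 4, but plate 1 had the opposite sign (-0.40), and as log2 of mean FPKM + 1 the pooled difference was -0.23. For Ripk1 the same difference was 0.31, with 0.26, 0.39 and 0.28 by plate, below the all-gene median of 0.45. Exons of Ripk1 overlap those of Serpinb6a and Gm17084, and 21% of its values above 0 were not whole reads. In no cell were both Traf2 and Ripk1 high, but only 11 cells had high Traf2 and 13 high Ripk1. With so few, the count cannot tell whether these genes exclude each other. At 1 FPKM or more, 7 cells had both, 12 Traf2 alone and 24 Ripk1 alone.

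**Figure D3:**
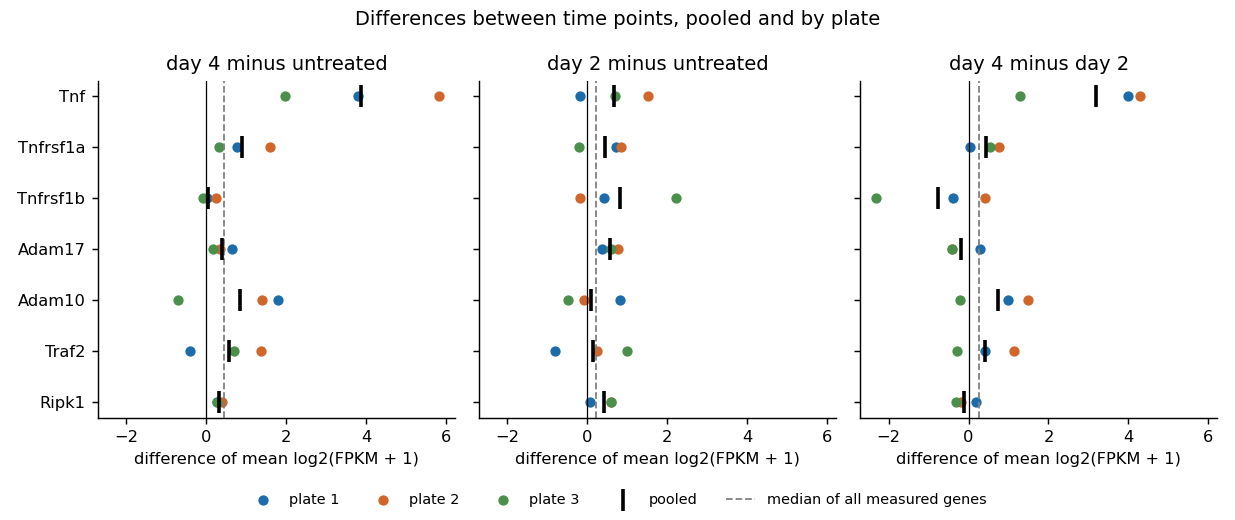
Differences of the mean of log2(FPKM + 1) between time points for the 7 genes, pooled (black bars) and in each plate (coloured points); the dashed line is the median of all measured genes. Pooled, Tnf stands at 3.87 and 3.20 in the comparisons of day 4, and the other genes lie between -0.76 and 0.89 in all 3 comparisons. Plate values of the other genes run from -2.30 to 2.22, both for Tnfrsf1b in plate 3.

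The level order of the 7 genes, in mean log2(FPKM + 1) (FPKM is already per exon length), was the same at its ends at each time point when plates were pooled: Tnf was highest, and Ripk1 and Traf2 were lowest. Single plates departed from it in untreated cells and at day 4. Untreated, Adam10 (2.90) and Adam17 (2.16) stood above Tnf (1.99) in plate 2. Tnfrsf1a was lowest (0.57) in untreated plate 1, where Traf2 was at 1.12. At day 4 Tnfrsf1b (1.83) stood below Traf2 (1.94) in plate 2. The order also differed by mean FPKM. Traf2 was then above Adam17 in untreated cells (13.96 against 12.55). At day 4 Traf2 (11.72) was above Adam17 (10.78) and Tnfrsf1b (10.26). In untreated cells the values ran from 2.73 for Tnf through 2.11 for Adam10, 1.57 for Adam17, 1.52 for Tnfrsf1a and 1.42 for Tnfrsf1b to 0.69 for Ripk1 and 0.59 for Traf2. Neighbours in that order lay within their SD over cells. At day 4 the order was Tnf at 6.60, Adam10 at 2.94, Tnfrsf1a at 2.41, Adam17 at 1.96, Tnfrsf1b at 1.47, Traf2 at 1.15 and Ripk1 at 0.99.

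Genes of the wider pathway were taken from 9 lists of 131 symbols, of which 70 were measured. Between untreated and day 4, 10 of 70 were called higher (14.3%, beside 18.9% of all measured genes) and 1 lower (1.43%, beside 0.346%), with a median difference of 0.41 beside 0.45 for all measured genes. The lists as a whole thus held no more higher calls than measured genes at large, and the genes named next are described singly. The 4 called regulators of Tnf mRNA were Elavl1 (1.67), which binds AU-rich mRNA, Litaf (1.5), Mapkapk2 (1.30), a kinase of the p38 pathway that stabilises Tnf mRNA, and Hnrnpd (1.18), among 13 measured. Zfp36, which encodes tristetraprolin, differed by 0.81 and was not called; it was named after its values were seen, as was Casp8 below. Among 9 measured regulators of shedding, Tspan14 (1.68), a tetraspanin partner of ADAM10, and Adam15 (1.68) were called higher, and Timp2 (-1.23), a metalloproteinase inhibitor, was called lower. Of Adam15 values above 0, 55.2% were not whole reads, and its exons overlap those of another gene. Among 12 measured substrates of the ADAM proteases the chemokine Cxcl16 was called higher (2.99), and 51.7% of its values above 0 were not whole reads. Exons of Elavl1, Litaf, Hnrnpd, Cxcl16, Bid and Tnfsf9 also overlap those of another gene.

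The lists downstream of the receptors were short, so their counts are given without a reading against the 18.9% of all measured genes. Among 4 measured genes of the death arm Zbp1 (1.24) and Bid (1.13) were called higher, and Casp8 differed by 0.82 without a call. Of 10 measured genes of complex I signalling none was called, and the largest differences were Chuk (0.85), a subunit of the IKK kinase, and Sharpin (0.67), of the linear ubiquitin ligase. Of 9 measured brakes none was called; Nfkbia (1.42), the inhibitor of NF-kB, and Nfkbib (0.97) differed most. None of the 5 NF-kB subunits was called, with Nfkb2 (0.88) and Relb (0.61) largest. Of 5 measured other receptors of the family none was called, with Ltbr (0.94) and Tnfrsf21 (0.82) largest. Among 3 measured ligands of the family Tnfsf9 was called higher (1.10), from high levels in 0 untreated cells to 6 of 36 at day 4.

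At day 2 against untreated, 4 of 70 listed genes were called higher (5.71%, beside 3.89% of all measured genes) and 1 lower (1.43%, beside 0.0576%), and nothing particular to the lists was read from these few calls. They were Mapkapk2 (1.12), Cxcl16 (1.21), the NF-kB brakes Tnip2 (1.09) and Nfkbib (1.02), and, lower, the microglial receptor Trem2 (-1.14). Between day 2 and day 4, 5 were called higher (7.14%, beside 9.57%) and 0 lower (beside 0.864%), namely Tspan14 (2.09), Adam15 (2.01), Cxcl16 (1.78), Elavl1 (1.49) and Tnfsf9 (1.0). These names were chosen after their values were seen.

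**Figure D4:**
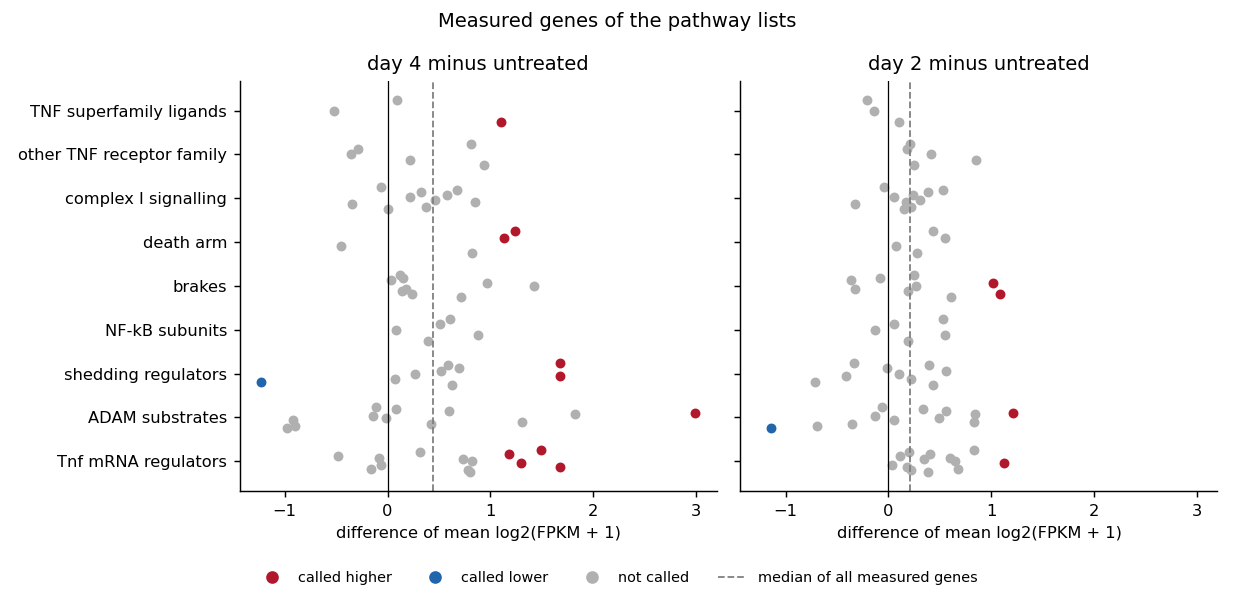
Difference of the mean of log2(FPKM + 1) for each of the 70 measured genes of the pathway lists (points), at day 4 and at day 2 against untreated cells; red and blue points were called higher or lower and the dashed line is the median of all measured genes. At day 4, 10 points are red and 1 is blue, and Cxcl16 stands farthest to the right at 2.99.

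Co-expression was described over the cells of all 3 time points (n = 54, 54 and 36) after the mean of each time point in each plate was removed. The points share plates, sequencing depth and numbers of detected genes. Over the 21 pairs of the 7 genes the Spearman rho had a median of 0.14, from -0.05 to 0.33, and 19 were above 0. Tnf had its largest values with Adam10 (0.33) and Tnfrsf1a (0.31), then Ripk1 (0.23), Traf2 (0.17), Adam17 (0.14) and Tnfrsf1b (0.07). The number of detected genes moved with each gene, with a rho of 0.48 for Tnf, 0.44 for Adam10 and 0.23 to 0.36 for the others, beside a median of 0.24 for all measured genes. With that number removed, the 21 pairs had a median of -0.01, from -0.16 to 0.16, and Tnf with Adam10 and with Tnfrsf1a were each at 0.13. Plates did not share a direction for Tnf with Adam17, at 0.39, -0.25 and 0.16 in plates 1, 2 and 3, and its pooled rho was 0.028, 0.35 and 0.0058 without plates 1, 2 and 3 in turn. With the number of detected genes removed it was -0.030.

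**Figure D5:**
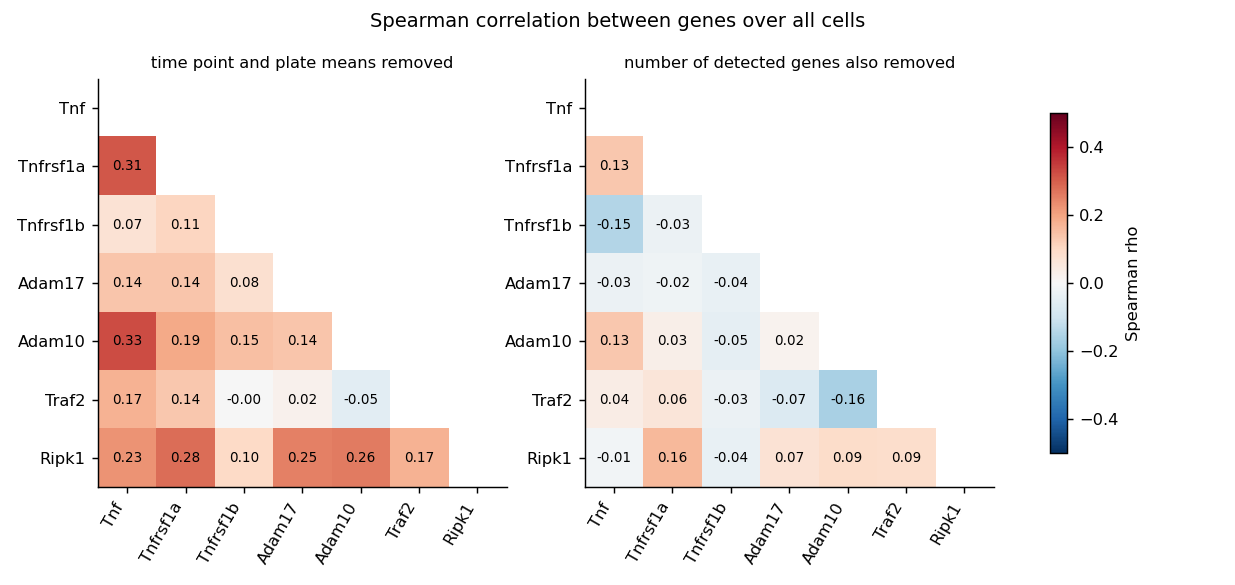
Spearman rho between the 7 genes over all cells, with time point and plate means removed (left) and with the number of detected genes per cell also removed (right). Tnf with Adam10 is 0.33 on the left and 0.13 on the right, and no pair reaches 0.3 on the right.

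High Tnf and the other high genes were also counted within cells, as a description. Of the 24 cells with high Tnf at day 4, 11 had high Adam10, 10 had high Tnfrsf1a, 8 had high Adam17, 5 had high Traf2, 4 had high Tnfrsf1b and 2 had high Ripk1. Of the 16 such cells at day 2, 6 had high Adam10, 6 high Tnfrsf1a and 6 high Tnfrsf1b, and 1 had high Adam17. In untreated cells 10 had high Tnf, of which 3 had high Adam10, 3 high Tnfrsf1a, 4 high Adam17 and 0 high Tnfrsf1b. Tnf, a receptor and a shedding enzyme were high together in 2 of 54, 4 of 54 and 9 of 36 cells. Tnf was the only high gene of the 7 in 4, 5 and 5 cells. A high receptor was found in 3 of 10 cells with high Tnf and 12 of 44 without it among untreated cells, in 9 of 16 and 13 of 38 at day 2, and in 13 of 24 and 2 of 12 at day 4. A high shedding enzyme was found in 5 of 10 and 12 of 44, 6 of 16 and 14 of 38, and 15 of 24 and 3 of 12. These counts were not tested, pool the plates and have no share over all measured genes beside them. Tnf moved with the number of detected genes (rho 0.48), which was not removed from the counts. Of the 24 cells with high Tnf at day 4, 7, 11 and 6 were in plates 1, 2 and 3. The day 4 cells of these plates had medians of 3563, 5057.5 and 3596.5 detected genes.

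Genes like Tnf were listed by the same centred rho, leaving out Gm, Rik, pseudogene, mitochondrial and ribosomal protein names. The first over all cells were Rnu2-10 (0.61), Ddx24 (0.51), Acaa1b (0.47), Sowahc (0.47), Il1a (0.45), Gnl3 (0.45), Ak1 (0.45) and Ccrl2 (0.44). With no names left out, Ddx24 ranked 10 and Il1a 14. Rnu2-10 is a small nuclear RNA gene with near-identical copies, 97.6% of its values above 0 were not whole reads, and its level is uncertain. Values that were not whole reads were also frequent for Acaa1b (80.4%, exons overlapping Dlec1), Gpr84 (60.4%) and Il1a (52.8%, exons overlapping Gm14023). Il1a encodes the cytokine interleukin-1 alpha and Ccrl2 a chemokine-binding receptor. Gpr84, which the series title names with Tnf and Il1a, was at 0.39, rank 58 among measured genes with no names left out. With the number of detected genes removed, Il1a was at 0.21 and Gpr84 at 0.27.

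With the same names left out, the genes most like the others were, for Tnfrsf1a, Gsap (0.49), Il10rb (0.44) and Ciapin1 (0.44), and for Tnfrsf1b, Guf1 (0.43), Gnpda2 (0.42) and Ctc1 (0.42). Exons of Guf1 and Gnpda2 overlap each other, and 52.7% and 48.5% of their values above 0 were not whole reads. For Adam17 they were Iah1 (0.48), whose exons overlap it, Srpk2 (0.43) and Yrdc (0.42), and for Adam10, St6galnac4 (0.48), Gnl3 (0.46) and Ikzf1 (0.45). For Traf2 they were Fam216a (0.55), Ugcg (0.55) and Nde1 (0.53), and for Ripk1, Tm9sf1 (0.50), its overlapping neighbour Serpinb6a (0.50) and Aldh16a1 (0.49). Gnl3, which encodes a nucleolar GTP-binding protein, was the 1 gene named for both Tnf and Adam10; its exons overlap those of Pbrm1 and 3 other genes, and 13% of its values above 0 were not whole reads. Il10rb, Ciapin1, Iah1, Srpk2, Yrdc, Fam216a, Tm9sf1, Serpinb6a and Aldh16a1 also overlap another gene, with 33.3% to 58.7% of values above 0 not whole reads.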

How the data were processed

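Single retinal cells of Iba1-EGFP mice were sequenced with 1 library per cell, per the labels' protocols, with cDNA amplified in 1 tube and tagmented with Nextera XT. The submitters' processing notes list STAR 2.7.2b, featureCounts 1.6.1, cutadapt 1.16, Trim Galore 0.4.4 and Trimmomatic 0.36, with the builds GRCm38.p6 and mm10, and no settings. As deposited, each of 55364 rows holds an FPKM value per cell. FPKM times exon length summed to 1e+09 in each cell, so values are shares of assigned reads. Values that are not whole reads were frequent for some genes, so no count model was fitted. Depth was taken from the most frequent FPKM times length in a cell, the value of 1 read. A pseudocount of 1 was used, and differences on that scale understate the change of low genes.

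Cells were grouped by the labels. With 1 sample of cells per time point there was no test and no p-value. Shares have exact Clopper-Pearson 95% intervals. The 7 genes and the 9 lists were chosen with earlier results of these data known. Genes named from a list are up to 4 called ones with the largest day 4 difference, or the 2 largest where none was called, and genes like a member are the first 8 for Tnf and 3 for the others, leaving out Gm, Rik, pseudogene, mitochondrial and ribosomal protein names. Promoters came from RefSeq (GRCm38.p6) and 3′ UTRs, the longest per gene, from GENCODE vM21. The procedure was tested on simulated data. Python 3.11.15, numpy 2.4.6, pandas 2.3.3 and scipy 1.17.1 were used.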

Additional observations from a re-analysis of the deposited data

How the results depend on the processing

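With 1 sample of cells per time point, row position on the plate set by time point and no animal named, cell counts and depth limit every value, and reads of genes with overlapping exons cannot be separated. No paired analysis was possible because the labels give plates and wells and no replicate of an animal. Each of the 3 plates holds the same number of cells of a time point. The mean of the within-plate differences therefore equals the pooled value for every gene by design (3.87 for Tnf at day 4). It is not a check, although 1 such value per difference is counted among the 210 and the 189 below. So are the 3 values per difference that each leave out 1 plate. With equal cell numbers they cannot move by as much as the SD of the plate values, so are no check either. Of 210 alternative values for the differences of the 7 genes, 189 moved by less than the SD of the plate values, 21 moved by more, and 0 called values changed sign. The sign turned in 22 of the 210, all for differences that were not called. For each Tnf difference, 10 of 10 alternatives were among the 189. Yet day 2 minus untreated, not called, was -0.15 with detected genes as a covariate. Disagreeing plates widen the SD, so a place among the 189 does not show robustness. Of 105 shares of cells at other thresholds or after thinning, 62 lay inside the interval of the share at 20 FPKM and 43 outside it. Summing repeated rows was not run, since no member has more than 1 row, and counts without a filter on low values stayed within 1.5 times.

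With detected genes per cell in the model, day 4 minus untreated was 0.084 for Tnfrsf1a, -0.37 for Tnfrsf1b, -0.57 for Adam17, -0.24 for Adam10 and -0.38 for Ripk1. Day 2 minus untreated was 0.15 for Adam17 and 0.068 for Ripk1, and day 4 minus day 2 was 0.040 for Tnfrsf1a. As log2 of mean FPKM + 1, day 4 minus untreated was -1.45 for Tnfrsf1b, -0.20 for Adam17, -0.23 for Traf2 and 0.58 for Ripk1, and day 2 minus untreated was 0.34 for Adam17 and -0.84 for Traf2. With a pseudocount of 0.1, Tnfrsf1b at day 4 was 0.28 and Adam17 at day 2 was 0.81 above untreated. With a pseudocount of 10, Adam17 was 0.094 and Ripk1 0.13 at day 4, and Adam17 was 0.21 at day 2. Without cells with markers of other cell types, Ripk1 was 0.68 at day 4, Adam17 was 0.36 at day 2, and day 4 minus day 2 was 0.27 for Adam17 and 0.20 for Ripk1. The cause was not tested.

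Of 70 listed genes, 24 were called higher and 3 lower at day 4 against untreated with a difference of at least 0.5, beside 2976 and 135 of all 8679 measured genes, and 1 and 0 with at least 2, beside 312 and 3. At day 2 they were 16 and 2 (beside 1333 and 100), and 0 and 0 (beside 4 and 0). Between day 2 and day 4 they were 11 and 7 with at least 0.5 (beside 1887 and 365) and 2 higher with at least 2 (beside 104). With 1 FPKM required in 30% of cells, which leaves fewer genes, the higher calls were 5, 2 and 3 (beside 1138, 286 and 567). The numbers of listed and of all genes left by that filter are not given, so these counts have no shares. They cannot be divided by 70 or 8679. The rho of Tnf with detected genes removed was -0.15 for Tnfrsf1b, 0.13 for Adam10, 0.037 for Traf2 and -0.014 for Ripk1. Time points taken alone, an alternative chosen after seeing the data, gave Tnfrsf1b -0.16 untreated and 0.22 at day 2, Traf2 0.10 and 0.26, and Ripk1 0.27 untreated. Ripk1 was 0.17 by Pearson's r, and 0.19 to 0.26 with 1 plate left out; Adam17 ran from 0.0058 to 0.35 with 1 plate left out.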

Other observations

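With no names left out, 9 of the first 10 genes most like Tnf over all cells, with time point and plate means removed, were small nuclear RNA genes, which have near-identical copies, so that their levels are uncertain. Their rho with Tnf ran from 0.53 to 0.61, and from 0.30 to 0.43 with the number of detected genes removed. Mean Rnu2-10 was 30.1, 38.1 and 139.9 FPKM in untreated, day 2 and day 4 cells. This set was chosen after its values were seen.

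In cells under 20 FPKM, the reads of each gene were set beside its reads in the other wells of the same plate column. The rho was 0.34 for Tnfrsf1b, 0.32 for Tnfrsf1a, 0.24 for Adam10, 0.21 for Adam17, 0.20 for Ripk1, 0.09 for Traf2 and 0.05 for Tnf. For the same column on the other plates, the rho was 0.02, 0.09, -0.12, 0.02, -0.04, -0.08 and 0.18 in that order. For the other wells of the same row, it ran from -0.08 for Tnf to 0.22 for Tnfrsf1a. The reads of other wells were set beside these values after seeing the data.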
